A study of Mus musculus with 6 samples.

Results

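The nascent transcription of zinc finger protein genes named *Zfp* with a 3-digit number was examined in muscle stem cells (MuSCs) with and without *Kmt5b*. The members were taken by symbol alone, as *Zfp* followed by exactly 3 digits with nothing else, and no measured value entered the choice. Of 14546 genes listed in the PRO-seq table, 289 met this rule (1.99%), with 288 distinct symbols because *Zfp935* was listed for 2 overlapping gene identifiers. PRO-seq maps engaged RNA polymerases through biotin-labelled nucleotides that they add to nascent RNA in isolated nuclei. It was done on MuSCs that proliferated in culture, in 3 samples of each group, Ctrl and *Kmt5b* sKO. All mice carried the *Pax7*CreERT driver, which places tamoxifen-inducible Cre in *Pax7*-expressing cells, were of C57BL/6 background and received tamoxifen at an age of 8 to 12 weeks. Ctrl mice had wild-type *Kmt5b* alleles (labelled Pax7CreERT/Suv4-20h1WT) and *Kmt5b* sKO mice had floxed ones (labelled Pax7CreERT/Suv4-20h1KO). KMT5B, also named SUV4-20H1, is a histone methyltransferase that turns H4K20me1 into H4K20me2.

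A classical zinc finger of the C2H2 type folds around a zinc ion held by a pair of cysteines and a pair of histidines, and arrays of such fingers read DNA sequence. Most mouse genes of this kind that also encode a KRAB box act as repressors: the KRAB box recruits TRIM28 (KAP1), which brings the H3K9 methyltransferase SETDB1 to the bound site, and many of these proteins silence transposable elements or imprinted loci. KRAB zinc finger genes arose by repeated tandem duplication and therefore lie in clusters, whereas zinc finger proteins without a KRAB box include general activators, RNA-binding proteins and spindle factors.

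Each gene had a value for its TSS region, the first 400 nt of the listed isoform. Another covered the rest of the gene, the gene body. TSS values are in RPM, the reads of the region scaled to a total that is not shared with the gene bodies. Gene body values are in TPM, for which reads are corrected for length as well. Both units are scaled to a total within each library, so a change of all genes alike cannot be seen in them. The recovered reads of all listed genes numbered 926904 to 3246052 per library in TSS regions and 7425406 to 16249221 in gene bodies, and the median tested member held 34 to 86 TSS reads and 133 to 304 gene body reads per library. Intervals from such reads cover counting error only. The *Kmt5b* gene body itself was at 30.6, 35.4 and 38.5 TPM in Ctrl against 37.8, 34.99 and 42.6 TPM in *Kmt5b* sKO, and thus offered no check of the genotype. All 7 markers of MuSCs and myoblasts were listed, with a summed gene body level of 1532 to 2279 TPM in Ctrl against 2023 to 2729 TPM in *Kmt5b* sKO. They did not move alike. *Des* was at 420, 558 and 351 TPM in Ctrl against 734, 556 and 921 TPM in *Kmt5b* sKO. *Pax7* was at 53.7, 36.1 and 26.0 against 25.5, 29.5 and 28.3 TPM, and both genes overlapped between the groups. All 4 markers of differentiating muscle together reached 909 to 1932 and 1973 to 2521 TPM, and the 3 Schwann and glia markers 8.75 to 9.90 and 14.8 to 23.0 TPM, with no overlap between the groups in either list. Both endothelial markers listed (of 3) summed to 1.83 to 2.96 and 3.74 to 4.05 TPM, again without overlap, both fibro-adipogenic markers listed (of 3) to 3.83 to 8.62 and 4.08 to 6.67 TPM, and of 3 leukocyte markers *Cd68* alone was listed (214 to 402 and 319 to 326 TPM). The part of these marker differences in the results that follow was not tested. In bulk samples, fewer cells of a type and less RNA per cell cannot be told apart.

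The members occupied 20 chromosomes. Chromosome 7 held 71 of them (24.6% of the members and 6.18% of the genes listed on it), chromosome 17 held 32, chromosome 13 held 26 and chromosomes 2 and 8 held 21 each, while chromosome 19 held 1. A KRAB box was found in the translated coding sequence of 172 members and not found in 117. The number of C2H2 fingers ranged up to 36, in *Zfp142*, with a median of 11 in members with a KRAB box and 7 in members without. No finger matched the pattern in 11 members, among them *Zfp503* and *Zfp703*, which belong to a family of transcriptional repressors with an atypical finger.

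With members counted as neighbours when their starts lay within 250 kb, and runs of at least 3 taken, 136 members (47.1%) lay in 25 clusters on 10 chromosomes. Of these 136, 115 had a KRAB box, as against 57 of the 153 outside clusters. Every member had a KRAB box in 16 clusters, and 8 clusters had no other listed gene between their members. The clusters with most members were those from *Zfp712* to *Zfp273* on chromosome 13 (14 members, chr13:67038596-67827002) and from *Zfp677* to *Zfp946* on chromosome 17 (14 members, chr17:21383748-22456689). A cluster on chromosome 7 from *Zfp628* to *Zfp580* (6 members, chr7:4915217-5053723) had no KRAB box in any member.

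Polymerase was engaged at members over a wide range. In the TSS region the mean over 6 libraries ran from 0 to 748 RPM, with quartiles at 7.93, 19.2 and 37.6 RPM. In the gene body it ran from 0.10 to 862 TPM, with quartiles at 5.81, 12.7 and 26.6 TPM. The median percentile of a member among all listed genes was 51.1 at the start and 48.5 in the gene body. At the start 23 of 289 members, and in the gene body 19, stood in the top 10% of listed genes. At 4 members, among them *Zfp748* and *Zfp366*, no TSS read was recovered in any library, although their gene bodies were read at means of 16.6 to 16.7 TPM for *Zfp748* in the 2 groups and 1.31 to 2.79 TPM for *Zfp366*.

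*Zfp143* had the most signal at its start. It encodes an activator that binds the promoters of many housekeeping and small RNA genes, and its TSS region held 689, 708 and 683 RPM in Ctrl against 791, 769 and 850 RPM in *Kmt5b* sKO. All 3 *Kmt5b* sKO libraries exceeded all 3 Ctrl libraries, but the log2 fold change of 0.21 (SE 0.24) did not pass the test (limma, adjusted p = 0.83). Next followed *Zfp213*, *Zfp207*, *Zfp113* and *Zfp568*, with means over 6 libraries of 164, 164, 142 and 134 RPM. *Zfp207* encodes BuGZ, a spindle assembly protein that binds BUB3, and *Zfp568* encodes a KRAB protein that represses a placental transcript of *Igf2*.

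The order differed in gene bodies. *Zfp791*, a KRAB gene on chromosome 8, led with 850, 1201 and 243 TPM in Ctrl against 1017, 764 and 1095 TPM in *Kmt5b* sKO, a spread within Ctrl (SD 485 TPM) that exceeded the difference between the group means of 765 and 959 TPM. Its TSS region held only 0 to 2 reads per library, and the annotated microRNA gene *Gm23388* lies inside its body on the same strand (chr8:85112012-85112068). *Zfp568* came second, at 241, 234 and 242 TPM in Ctrl against 234, 216 and 243 TPM in *Kmt5b* sKO. *Zfp503*, *Zfp672* and *Zfp106*, the last of which encodes an RNA-binding protein needed by motor neurons and muscle, followed with 140, 139 and 125 TPM.

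**Figure D1:**
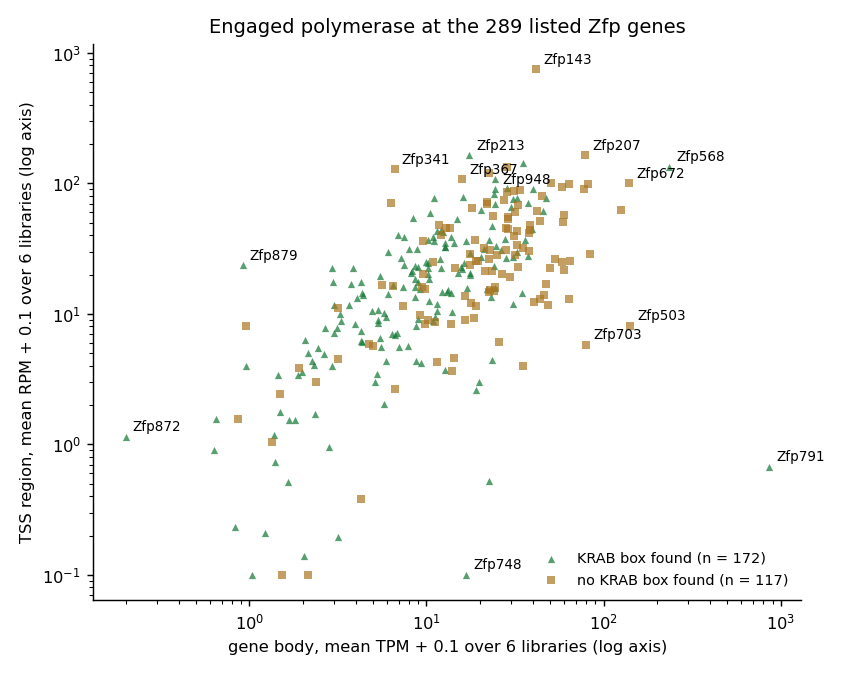
Mean TSS-region level (RPM + 0.1, y axis, log scale) against mean gene body level (TPM + 0.1, x axis, log scale) over all 6 libraries for the 289 members, with triangles for the 172 with a KRAB box and squares for the 117 without. Members with a KRAB box lie further to the left, *Zfp143* stands highest with 748 RPM, and *Zfp791* lies apart at 862 TPM with hardly any TSS signal.

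Members with and without a KRAB box differed in level as groups. Among tested members, the median gene body level was 9.89 TPM for the 161 with a KRAB box and 24.2 TPM for the 110 without, beside 15.8 TPM over all 12451 tested genes. In the TSS region the medians were 16.9, 26.1 and 23.0 RPM in the same order. The pausing index, the TSS value divided by the gene body value, accordingly had a median of 2.00 with a KRAB box and 1.23 without, beside 1.59 over all genes in which it could be tested. It exceeded 1 in 191 of 262 members (72.9%). Since start and body were scaled apart, an index of 1 does not mark equal amounts of polymerase per base. The highest indices were those of *Zfp879* (46.5), *Zfp341* (20.1) and *Zfp143* (18.3), and the lowest those of *Zfp503* (0.061), *Zfp703* (0.075) and *Zfp444* (0.11). *Zfp879* reached its index through a body of 2 to 15 reads per library.

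The first comparison asked whether polymerase at the start of the members differed between *Kmt5b* sKO and Ctrl. Of the 283 autosomal members, 271 passed the filter on low values and were tested together with all other genes with limma, while 12 fell below it (11 through the TSS region) and 6 on chromosome X were outside the test. Of the 271, 2 passed an adjusted p of 0.1 in the TSS region, *Zfp367* and *Zfp948*, and both fell in *Kmt5b* sKO. Over all 12451 genes, 1.66% passed, 0.932% in the higher and 0.731% in the lower direction, so that 2 of 271 lay below that share. The P values measure the spread between these samples. The labels do not say whether they came from separate mice, although the study describes its PRO-seq replicates as biological.

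*Zfp367* (ENSMUSG00000044934, chr13:64133018-64153202, minus strand, 5 exons) encodes a protein with 2 fingers and no KRAB box, described as a transcriptional activator in erythroid cells. Its TSS region held 167, 132 and 147 RPM in Ctrl against 43.6, 68.0 and 88.3 RPM in *Kmt5b* sKO, so that the groups lay well apart. It fell by 1.20 on the log2 scale (SE 0.25, adjusted p = 0.040 by limma). Its gene body gave 24.3, 20.7 and 18.5 TPM in Ctrl against 8.28, 10.3 and 12.7 TPM. Again every *Kmt5b* sKO library lay below every Ctrl library, and the body fell by 1.0 (SE 0.19, adjusted p = 0.075 by limma), which made it the one member that passed in both regions.

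*Zfp948* (ENSMUSG00000067931, chr17:21567046-21588697, plus strand, 6 exons) is a KRAB gene with 15 fingers within the chromosome 17 cluster. Its TSS region held 166, 90.8 and 106 RPM in Ctrl against 44.9, 54.8 and 77.3 RPM in *Kmt5b* sKO, and it fell by 1.01 (SE 0.26, adjusted p = 0.074 by limma). Its gene body gave 26.8, 29.0 and 29.0 TPM against 20.9, 21.8 and 18.1 TPM, also without overlap. The body's log2 fold change of -0.47 (SE 0.13) did not pass (adjusted p = 0.14 by limma).

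Counting the called genes, 41 of 271 members (15.1%) had all *Kmt5b* sKO libraries above all Ctrl libraries at the start and 7 (2.58%) had them all below, beside 10.2% and 5.33% of all tested genes. Among the non-overlapping members, the highest log2 fold changes in the TSS region belonged to *Zfp608*, *Zfp820*, *Zfp951*, *Zfp532* and *Zfp444*, from 1.26 to 2.06, with adjusted p-values from 0.11 to 0.38 by limma. *Zfp532*, whose human counterpart is fused to *NUTM1* in some NUT carcinomas, held 3.63, 5.17 and 4.55 RPM in Ctrl against 11.5, 12.6 and 12.4 RPM in *Kmt5b* sKO. *Zfp608*, *Zfp820* and *Zfp444* rested on few reads, with 0 to 12 per Ctrl library. The lowest, besides the called *Zfp367* and *Zfp948*, were *Zfp277*, *Zfp473* and *Zfp692*, at -0.65, -0.56 and -0.38, and their adjusted p-values ran from 0.66 to 0.80 by limma.

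In the gene body, 4 of 271 members passed, *Zfp367* in the lower direction and *Zfp938*, *Zfp873* and *Zfp951* in the higher, while 2.99% of all genes passed (1.61% higher, 1.38% lower). All 3 that rose encode KRAB zinc finger proteins, and *Zfp938* and *Zfp873* lie in the same cluster on chromosome 10. *Zfp938* (ENSMUSG00000062931, chr10:82224850-82241273, minus strand, 4 exons, 10 fingers) was at 5.12, 5.04 and 5.59 TPM in Ctrl against 10.3, 8.58 and 9.62 TPM in *Kmt5b* sKO. The groups were far apart relative to their spread, with a log2 fold change of 0.79 (SE 0.15, adjusted p = 0.072 by limma). *Zfp873* (ENSMUSG00000061371, chr10:82048123-82061581, plus strand, 4 exons, 16 fingers) gave 4.56, 3.36 and 4.39 TPM against 6.96, 9.12 and 9.79 TPM, a rise of 0.98 (SE 0.20, adjusted p = 0.076 by limma). *Zfp951* (ENSMUSG00000072774, chr5:104813169-104860070, minus strand, 5 exons, 10 fingers) was the lowest of the 3, at 1.85, 1.78 and 2.29 TPM against 3.29, 5.15 and 4.78 TPM, and rose by 0.97 (SE 0.22, adjusted p = 0.098 by limma).

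At their starts these 3 genes did not pass. *Zfp873* held 12.8, 9.19 and 13.6 RPM in Ctrl against 22.6, 25.1 and 15.6 RPM in *Kmt5b* sKO, without overlap, at a log2 fold change of 0.79 (SE 0.32, adjusted p = 0.33 by limma). *Zfp951* held 1.21, 6.89 and 7.58 against 9.51, 17.2 and 9.66 RPM (log2 fold change 1.38, SE 0.52, adjusted p = 0.28 by limma). *Zfp938* held 25.2, 23.6 and 17.8 against 23.9, 22.5 and 29.0 RPM, and there the groups overlapped (log2 fold change 0.18, SE 0.28, adjusted p = 0.89 by limma).

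**Figure D2:**
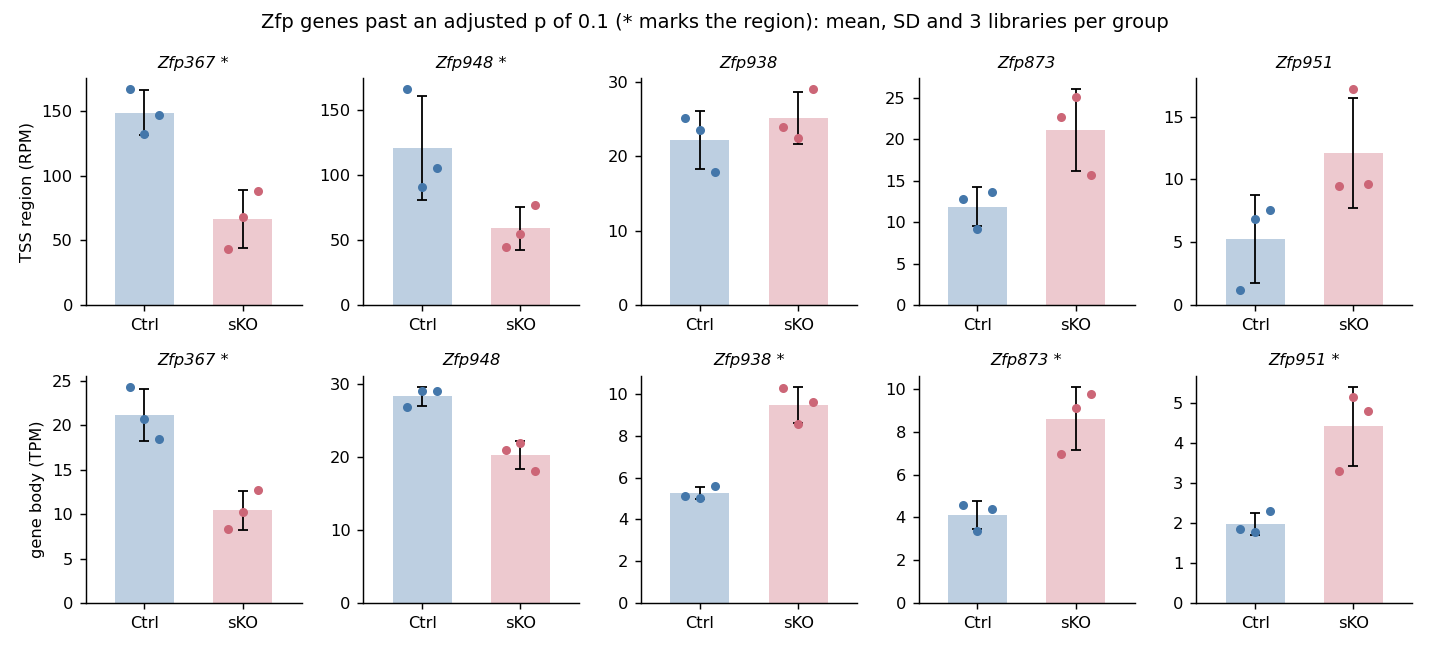
TSS-region level (upper row, RPM) and gene body level (lower row, TPM) of the 5 members that passed an adjusted p of 0.1 in a region, marked by an asterisk. Bars show the mean of 3 libraries, error bars the SD and points the libraries: *Zfp367* and *Zfp948* are lower in *Kmt5b* sKO in both rows, and the bodies of *Zfp938*, *Zfp873* and *Zfp951* are higher.

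The calls depended on single libraries. No member passed in the gene body without Ctrl replicate 1, without Ctrl replicate 2 or without any one of the 3 *Kmt5b* sKO libraries, with 19 to 28 members at an unadjusted p under 0.05 in these fits, and 8 passed without Ctrl replicate 3. Over all 12451 genes, 0 passed without Ctrl replicate 1 or without any one *Kmt5b* sKO library, 261 without Ctrl replicate 2 and 836 without Ctrl replicate 3. At the start no member passed without Ctrl replicate 1 or *Kmt5b* sKO replicate 1 (25 and 16 at an unadjusted p under 0.05), 1 without *Kmt5b* sKO replicate 2, 2 without *Kmt5b* sKO replicate 3, 3 without Ctrl replicate 3 and 6 without Ctrl replicate 2. The counts over all genes in the same order were 1, 16, 132, 46, 270 and 408. With recovered reads, edgeR called 2 members in the TSS region (2.24% of all genes) and 8 in the gene body (6.01%), and DESeq2 called 3 (2.37%) and 12 (10.4%). The directions of these 5 genes were the same in every fit that left out 1 library.

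The promoters of the 5 genes are shown as examples. The 3 genes that rose hold a CCAAT followed by a CTTCCG, and *Zfp367* and *Zfp948* do not. This contrast was seen in these same sequences, so it is no test of a link between the words and the direction of change. Each line gives the RefSeq window from 250 bases before to 50 after an annotated start in GRCm38.p6, read 5′ to 3′ on the strand of the gene. Capitals mark the word CCAAT, the word CTTCCG and E2F-type words on either strand, overlaps included, which were chosen after the sequences were seen. The windows are chr13:64153150-64153449 for *Zfp367*, chr17:21566728-21567027 for *Zfp948*, chr10:82241226-82241525 for *Zfp938*, chr10:82047873-82048172 for *Zfp873* and chr5:104860019-104860318 for *Zfp951*.
Zfp367: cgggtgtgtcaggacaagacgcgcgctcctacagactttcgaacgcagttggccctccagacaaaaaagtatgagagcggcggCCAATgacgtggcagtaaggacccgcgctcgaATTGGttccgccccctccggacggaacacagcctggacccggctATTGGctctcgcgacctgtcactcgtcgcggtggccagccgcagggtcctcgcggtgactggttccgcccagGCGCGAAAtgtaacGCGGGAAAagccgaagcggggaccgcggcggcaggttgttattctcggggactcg
Zfp948: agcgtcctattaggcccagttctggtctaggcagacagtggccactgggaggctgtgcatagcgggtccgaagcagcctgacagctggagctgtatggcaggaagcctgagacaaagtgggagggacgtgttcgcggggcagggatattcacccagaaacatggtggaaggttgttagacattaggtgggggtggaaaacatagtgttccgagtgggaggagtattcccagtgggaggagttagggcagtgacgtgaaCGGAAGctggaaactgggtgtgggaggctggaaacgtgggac
Zfp938: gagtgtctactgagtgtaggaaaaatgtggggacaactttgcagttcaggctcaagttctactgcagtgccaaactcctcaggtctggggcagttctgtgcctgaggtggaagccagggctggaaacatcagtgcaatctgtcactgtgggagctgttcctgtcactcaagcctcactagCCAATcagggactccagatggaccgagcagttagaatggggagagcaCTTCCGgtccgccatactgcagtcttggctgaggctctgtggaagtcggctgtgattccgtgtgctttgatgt
Zfp873: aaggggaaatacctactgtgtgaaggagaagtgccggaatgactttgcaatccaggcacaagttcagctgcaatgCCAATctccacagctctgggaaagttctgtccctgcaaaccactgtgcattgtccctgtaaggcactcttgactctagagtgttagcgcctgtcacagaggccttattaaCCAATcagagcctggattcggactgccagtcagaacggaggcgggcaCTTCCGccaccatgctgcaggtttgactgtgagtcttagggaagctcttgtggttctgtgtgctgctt
Zfp951: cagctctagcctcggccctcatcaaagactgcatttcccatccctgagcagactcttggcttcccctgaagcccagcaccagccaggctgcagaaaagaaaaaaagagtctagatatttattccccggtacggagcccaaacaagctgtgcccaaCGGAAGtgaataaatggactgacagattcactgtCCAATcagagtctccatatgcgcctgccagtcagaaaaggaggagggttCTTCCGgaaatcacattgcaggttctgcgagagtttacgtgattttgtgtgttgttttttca

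The *Zfp367* window had CCAAT at 3 places, E2F-type words at 2 places and 36 CpG dinucleotides, and no CTTCCG. The *Zfp948* window had 1 CTTCCG, on the opposite strand (printed CGGAAG), no CCAAT and 10 CpG. In *Zfp938*, *Zfp873* and *Zfp951* a CCAAT lay 47, 47 and 49 bases before a CTTCCG, counted from first base to first base, with 5, 6 and 8 CpG in the window. CCAAT is the core of the site bound by NF-Y, and CTTCCG the core read by ETS factors. A window within 500 nt of the listed start was found for 226 members. Among these, CCAAT was present in 57.0% of the 142 with a KRAB box, 36.9% of the 84 without and 38.8% of 10455 windows of listed genes. CTTCCG was present in 46.5%, 27.4% and 31.2%, both words in 23.2%, 10.7% and 11.5%, and an E2F-type word (TTTCCCGC or TTTCGCGC or TTTGCCGC or TTTGGCGC) in 4.23%, 8.33% and 4.08%. Over all 32851 RefSeq windows the shares were 37.4%, 16.9%, 5.95% and 2.26%. Both words were counted in any order and at any distance, so no share was obtained for a CCAAT followed by a CTTCCG. Among other members, *Zfp277*, which lay below without overlap in both regions, had CCAAT at 2 places and 1 CTTCCG. *Zfp781*, whose body lay above without overlap, had 1 CCAAT and no CTTCCG. The words were not compared with the direction of change over all members. These are matches of letters, not mapped sites.

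Counting the called genes, the bodies of 34 of 271 members (12.5%) lay above in all *Kmt5b* sKO libraries and those of 11 (4.06%) below, beside 12% and 9.34% of all genes. *Zfp599* and *Zfp879* showed log2 fold changes of 1.08 and 1.07 and did not pass (adjusted p = 0.13 and 0.16 by limma). *Zfp599* was at 4.19, 3.71 and 2.44 TPM in Ctrl against 9.99, 8.35 and 5.39 TPM in *Kmt5b* sKO, the last of which lay close to the Ctrl range. *Zfp820* reached 0.80 (SE 0.24, adjusted p = 0.17 by limma). On the lower side *Zfp382*, *Zfp239* and *Zfp277* followed *Zfp367* and *Zfp948*, at -0.70, -0.39 and -0.31, with adjusted p-values of 0.18, 0.35 and 0.43 by limma. In both regions at once, 17 members lay above without overlap, 3 below (*Zfp367*, *Zfp948* and *Zfp277*), and 1, *Zfp934*, above in the TSS region and below in the body. The share of all tested genes for both regions at once was not obtained, so these counts stand without a background. Changes at the start and in the body correlated over all tested genes (r = 0.64) and over the members (r = 0.55).

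As a group, the members lay higher in *Kmt5b* sKO by a small amount. At the start the median log2 fold change was 0.19 over 271 members beside 0.08 over all tested genes, with 72.3% of the members and 58.2% of all genes above 0. Along the body it was 0.07 beside 0.02, with 64.9% and 53.8% above 0. Set against the median of all tested genes in the same library, the members' median log2 level in the TSS region was -0.21, -0.23 and -0.31 in Ctrl against 0.02, -0.04 and -0.03 in *Kmt5b* sKO. In the gene body it was -0.30, -0.23 and -0.29 against -0.14, -0.12 and -0.17. In both regions the 3 *Kmt5b* sKO libraries lay above the 3 Ctrl libraries. Members are no replicates of one another, and no test of the group was made.

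The higher values were found mainly among members with a KRAB box, whose median log2 fold change reached 0.24 in the TSS region (130 of 161 above 0) and 0.15 in the gene body (115 of 161 above 0). Members without a KRAB box had medians of 0.09 (66 of 110 above 0) and 0.02 (61 of 110 above 0). The first of these medians ran from 0.016 without Ctrl replicate 3 to 0.16 without *Kmt5b* sKO replicate 3, and was 0.020 with edgeR and 0.0093 with DESeq2. In the TSS region 30 members with a KRAB box (18.6%) lay above without overlap and 3 below, and of those without the box 11 and 4, beside 10.2% and 5.33% of all genes. Along the body these were 29 (18%) and 7, while of the members without a KRAB box 5 lay above and 4 below, beside 12% and 9.34% of all genes. The body share depends on level. With all genes in 3 equal bins by body level, 16.5% of the lowest bin lay above and 9.30% below, and 8.97% and 11.7% of the middle bin. The median body level of the KRAB members, 9.89 TPM, lay close to the limit between these bins (9.77 TPM). KRAB members were not split by level. At the start the median of the KRAB members lay above all Ctrl libraries in each *Kmt5b* sKO library, but in the gene body *Kmt5b* sKO replicate 3 fell among the Ctrl libraries. The difference between members with and without the box was not tested.

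**Figure D3:**
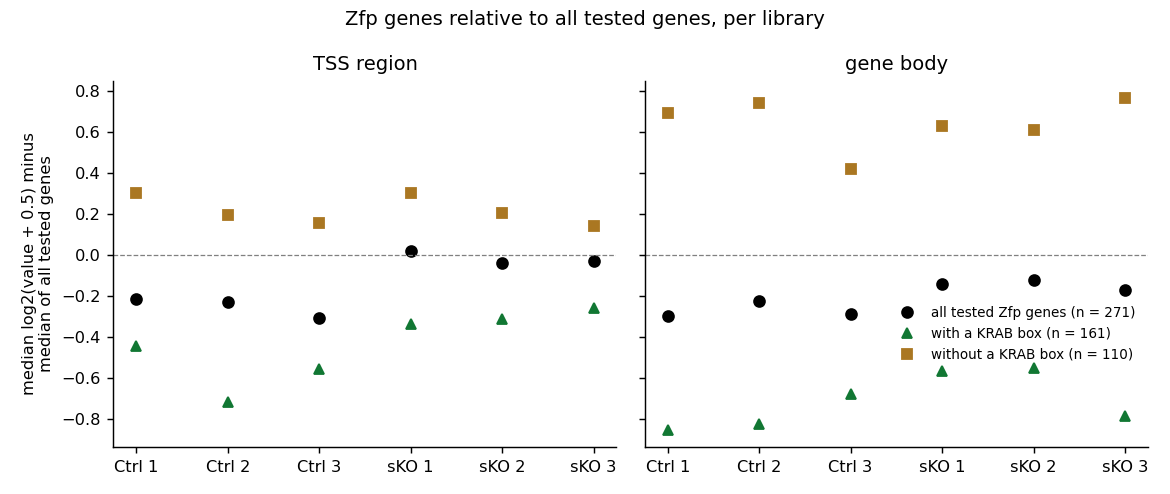
Median log2(value + 0.5) of the 271 tested members (circles), the 161 with a KRAB box (triangles) and the 110 without (squares) in each library, minus the median of all 12451 tested genes in that library (dashed line at 0), for the TSS region (left) and gene body (right). The circles of *Kmt5b* sKO libraries lie above those of Ctrl in both panels, at -0.04 to 0.02 against -0.31 to -0.21 in the TSS region.

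When genes were split into 3 equal bins by TSS level, the median log2 fold change of the members from the lowest bin up was 0.24, 0.20 and 0.16, beside 0.12, 0.07 and 0.06 for all genes. By body level, the body medians of the members were 0.20, 0.05 and 0.04, beside 0.06, -0.01 and 0.04 for all genes. Similar sequences in related members could exchange reads, since 1 random position was kept for a read that matched several. A stretch of 50 bases was shared with another member in the TSS region of 40 members, a selection made after the data were seen. Without these, the median was 0.18 over 236 members at the start and 0.06 in the gene body, and 2 and 4 members passed in the 2 regions. The body value does not address shared bodies, because members that shared sequence only outside the TSS region stayed in. *Zfp784* was one of them, with 58.6% of its span shared. Sharing with genes other than members was not searched.

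The pausing index was compared to ask whether start and body moved apart at single genes. A shift between start and body shared by all genes cannot be seen in it, because the regions were scaled apart. No member passed in 262 tested (limma, 8 at an unadjusted p under 0.05), and no gene passed among all 11698 (3.86% at an unadjusted p under 0.05). The median log2 fold change of the index was 0.11 over the members and 0.05 over all genes, with 18 members above and 6 below without overlap (5.93% and 3.09% of all genes).

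By cluster, the median TSS log2 fold change was above 0 in 23 of 25 clusters and the median gene body change in 19 of 25. The highest TSS median, 0.81, belonged to the cluster on chromosome 13 of both *Zfp935* entries and *Zfp934* (chr13:62453016-62558629), whose members shared 59.4% to 99.8% of their span in 50-base stretches with other members and overlapped one another. *Zfp934* held 8.23, 8.62 and 17.6 RPM in Ctrl against 24.9, 20.47 and 24.4 RPM in *Kmt5b* sKO at its start. Its body went the other way, from 5.15, 4.09 and 4.37 TPM to 3.82, 3.54 and 4.05 TPM. No member of this cluster passed the test.

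The cluster on chromosome 10 (*Zfp433*, *Zfp781*, *Zfp873* and *Zfp938*, chr10:81704825-82241273) had a median of 0.48 at the start and 0.53 in the gene body, and all 4 members were above 0 in both. Its bodies at *Zfp781*, *Zfp873* and *Zfp938* did not overlap between the groups, while *Zfp433*, the member of highest level, was at a mean of 12.4 ± 0.468 TPM in Ctrl against 12.95 ± 1.55 TPM in *Kmt5b* sKO (SD, n = 3 each). The cluster of *Zfp120*, *Zfp937* and *Zfp442* on chromosome 2 (chr2:150114406-150451486) showed 0.75 and 0.59, and all 3 bodies lay higher in *Kmt5b* sKO without overlap. *Zfp937* and *Zfp442* each shared 23.1% of their TSS region in 50-base stretches with other members, and 21.8% and 31.2% of their span. *Zfp120* shared none of its TSS region and 1.33% of its span. Reads could therefore be exchanged between members here, and the rises need not be independent. *Zfp937* held 6.78, 7.47 and 3.98 RPM in Ctrl against 12.1, 15.2 and 13.8 RPM in *Kmt5b* sKO, with adjusted p = 0.18 by limma. None of these 3 passed the test.

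**Figure D4:**
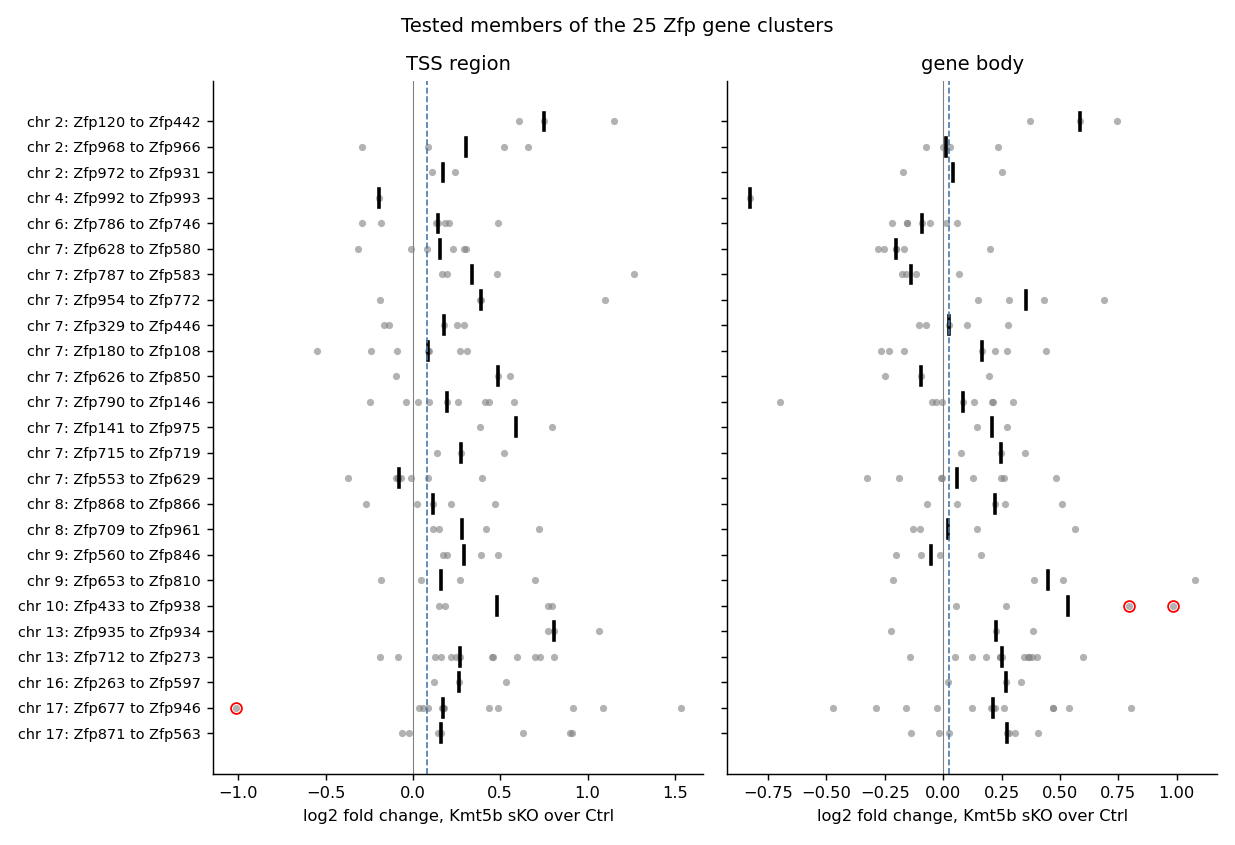
log2 fold change of *Kmt5b* sKO over Ctrl for each tested member (grey points) of the 25 clusters, named by chromosome and by first and last member, in the TSS region (left) and gene body (right). Black bars are cluster medians, red circles members past an adjusted p of 0.1 and the dashed line the median of all tested genes (0.08 and 0.02): most bars lie to its right, and the cluster from *Zfp628* to *Zfp580* lies to its left in the gene body.

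The 14 members of the chromosome 17 cluster did not move alike. The median log2 fold change of its 13 tested members was 0.17 in the TSS region, with 12 above 0, and 0.21 in the gene body, with 9 above 0. Without 1 library these medians ran from 0.18 to 0.28 and from 0.13 to 0.27, the highest TSS value without *Kmt5b* sKO replicate 3 and the lowest body value without Ctrl replicate 3. *Zfp948*, its member of highest level, passed the test in the TSS region and was the one tested member below 0 there, while 4 members were below 0 in the body. *Zfp947* held 19.1, 9.19 and 15.2 RPM in Ctrl against 30.5, 33.0 and 27.1 RPM in *Kmt5b* sKO, a log2 fold change of 1.09 (SE 0.31, adjusted p = 0.11 by limma). The TSS log2 fold change of *Zfp820*, the highest of the cluster at 1.54, rested on 0 to 7 reads per library. *Zfp983*, with a TSS mean of 0.19 RPM in Ctrl against 0 in *Kmt5b* sKO, was under the filter.

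**Figure D5:**
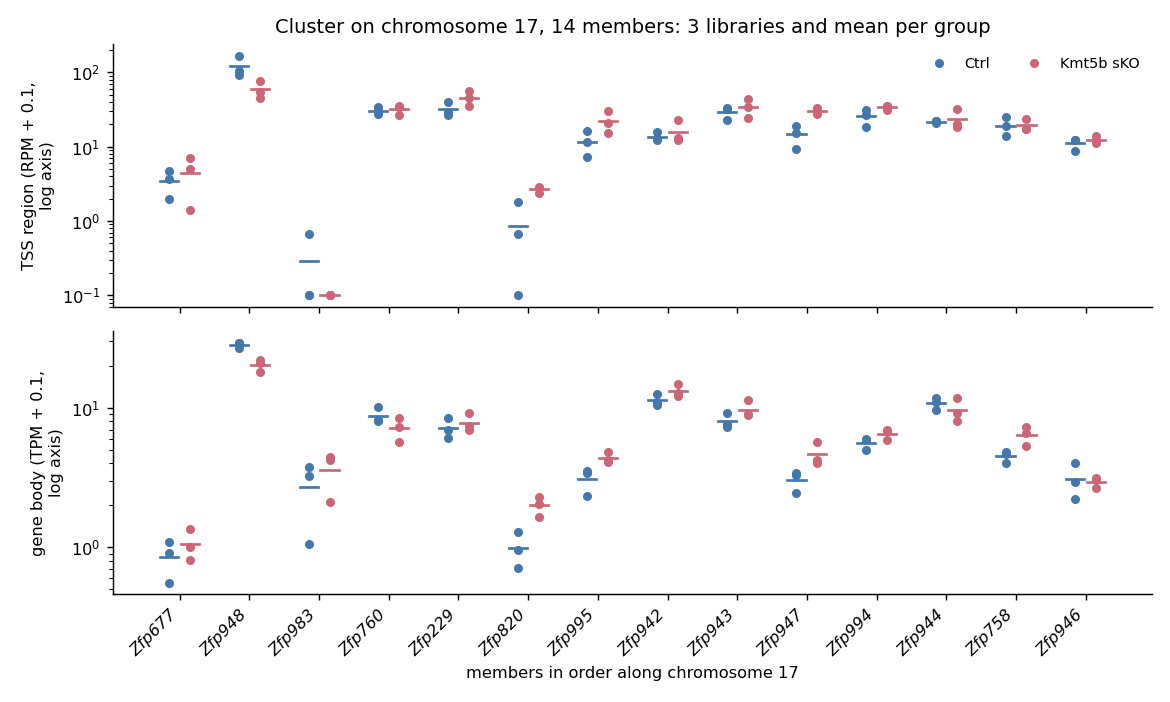
TSS-region (upper panel, RPM + 0.1) and gene body levels (lower panel, TPM + 0.1), both on log axes, of the 14 members of the chromosome 17 cluster in their order along the chromosome. Points are libraries and bars group means: *Zfp948* has the highest level and is lower in *Kmt5b* sKO, and *Zfp947* is higher.

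Among the 14 members from *Zfp712* to *Zfp273* on chromosome 13, 11 of 13 tested were above 0 at the start (median 0.27) and 12 in the gene body (median 0.25), with 2 and 1 of them without overlap. The TSS median was 0.45 without Ctrl replicate 1, 0.41 with edgeR and 0.45 under the stricter filter of 2, and the body median was 0.16 without *Kmt5b* sKO replicate 2 and 0.45 without *Kmt5b* sKO replicate 3. *Zfp748* in this cluster had no recovered TSS read and was not tested. The 6 members without a KRAB box from *Zfp628* to *Zfp580* on chromosome 7 went the other way in the gene body, with a median of -0.20 and 1 of 6 above 0, though none of them passed the test or was free of overlap. Leaving out Ctrl replicate 1 or 2 gave this median as -0.051 or -0.12. It came to -0.31 when *Kmt5b* sKO replicate 3 was left out and to -0.42 when Ctrl replicate 3 was, and in the latter fit *Zfp580* and *Zfp628* passed. Their median in the TSS region was 0.16, and it turned to -0.02 without Ctrl replicate 3.

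Members with a known function were taken from a list of 30, of which 29 were listed and tested. None passed in either region (2 at an unadjusted p under 0.05 in each), and the lowest adjusted p was 0.10 at the start and 0.15 in the gene body by limma. Under alternatives, *Zfp697* passed in the TSS region with DESeq2, with a pseudocount of 1 and without Ctrl replicate 2, *Zfp106* also without Ctrl replicate 2, and *Zfp809* in the gene body with DESeq2. *Zfp697*, which has been linked to muscle regeneration, came closest: its TSS region held 73.4, 88.5 and 55.1 RPM in Ctrl against 116, 114 and 153 RPM in *Kmt5b* sKO, and its body 51.5, 43.5 and 33.7 against 55.1, 57.1 and 62.3 TPM. Neither region overlapped between the groups. *Zfp809*, which silences retroviruses through their primer binding site, had a body of 8.36, 9.74 and 8.51 TPM in Ctrl against 13.7, 11.5 and 13.4 TPM in *Kmt5b* sKO, also without overlap, but its TSS region was at means of 35.9 and 36.4 RPM.

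The other KRAB proteins with a known target showed no call. *Zfp445*, which protects imprinted loci together with ZFP57, held 58.1, 53.4 and 43.2 RPM in Ctrl against 73.8, 74.6 and 63.0 RPM in *Kmt5b* sKO at its start, without overlap, and group means of 44.6 and 45.8 TPM in the body. *Zfp708* and *Zfp932*, which bind endogenous retroviral sequence, had body means of 11.8 and 12.1 TPM and of 4.21 and 6.10 TPM in Ctrl and *Kmt5b* sKO. *Zfp568* was at 239 and 231 TPM.

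The 24 regulators of other kinds had a median log2 fold change of 0.20 at the start and 0.08 in the gene body, and 18 of 24 were above 0 in each region. *Zfp281*, a factor of pluripotent cells, had body means of 41.8 and 52.2 TPM in Ctrl and *Kmt5b* sKO. *Zfp106*, named above for its body level, had 111 and 139 TPM. *Zfp516*, a factor of brown fat, held TSS means of 10.4 and 17.5 RPM without overlap between groups. *Zfp423* and *Zfp521*, related multi-finger proteins of adipogenic and progenitor cells, had body means of 3.39 and 2.74 TPM and of 20.0 and 25.0 TPM. *Zfp207*, *Zfp384*, *Zfp451*, *Zfp638* and *Zfp326* differed by at most 0.08 on the log2 scale in the gene body.

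The 6 members on chromosome X, *Zfp182*, *Zfp185*, *Zfp275*, *Zfp300*, *Zfp449* and *Zfp711*, were fitted in the alternative that included the sex chromosomes. None passed there, with adjusted p-values from 0.64 to 0.98 at the start and 0.42 to 0.99 in the gene body by limma.

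Genes with *Zfp* symbols of 1 or 2 digits, which the rule left out, gave medians of 0.13 at the start and 0.11 in the gene body over 46 tested. These stood beside 0.19 and 0.07 for the members and 0.08 and 0.02 for all tested genes. Of the 46, 0 were called in either region (limma, 5 and 7 at an unadjusted p under 0.05). The 20 genes that act with KRAB zinc finger proteins or at H3K9me3, all tested, had medians of -0.07 and -0.08. At the start 8 of the 20 were above 0 and in the gene body 5. In the TSS region 2 of them passed in the lower direction and none in the higher, beside 0.731% and 0.932% of all genes. *Uhrf1*, which recruits the maintenance DNA methyltransferase, held 83.0, 76.4 and 89.0 RPM in Ctrl against 19.0, 42.3 and 46.9 RPM in *Kmt5b* sKO (log2 fold change -1.29, SE 0.29, adjusted p = 0.048 by limma). The other was *Cbx5*, which encodes HP1 alpha, at 41.6, 43.7 and 37.3 against 18.03, 19.8 and 25.8 RPM (log2 fold change -0.94, SE 0.26, adjusted p = 0.098 by limma). In the gene body *Uhrf1* fell (log2 fold change -1.20, SE 0.22, adjusted p = 0.069 by limma) and 6 of 20 lay below without overlap and 1, *Hdac2*, above (9.34% and 12% of all genes). At the start 3 lay below and 1, *Morc3*, above (5.33% and 10.2% of all genes). *Trim28* was at TSS means of 193 and 163 RPM and body means of 58.7 and 55.6 TPM, with overlap in both regions. *Setdb1* was at TSS means of 12.8 and 14.3 RPM, with overlap, and body means of 25.8 and 20.4 TPM. Its body was among the 6 that lay below.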

How the data were processed

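PRO-seq was done on 3 Ctrl and 3 *Kmt5b* sKO samples. Per the submitters' processing notes, reads were handled with FastQC 0.11.8, Trimmomatic 0.39, STAR 2.6.1d and Picard 2.18.16 on GRCm38. The authors kept 1 random position of a read with several, chose for each gene the isoform with the most TSS signal, and deposited TPM values per region. All TSS regions span 400 nt, so the deposited TSS values equal RPM of a total separate from that of the gene bodies. The deposited gene body TPM also divides by length. Sources used here do not state a test for single genes.

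Values were tested as log2(value + 0.5), a log2 scale computed here from the deposited values, which understates changes of low genes, with limma 3.58.1 (eBayes with a trend) in R 4.3.3 over all autosomal genes whose TSS and gene body means both reached 0.5, with Benjamini-Hochberg adjustment and a threshold of 0.1. Whole reads were derived from the step size among low values (99.3% to 100.0% of checked values whole within 0.15 reads), and were tested with edgeR 4.0.16 and DESeq2 1.42.0 as alternatives. The fits were tested on simulated data. A KRAB box was searched with HMMER 3.4 and C2H2 fingers with a residue pattern in translated GENCODE vM21 coding sequences, in place of the planned RefSeq proteins. Promoters came from RefSeq, with 240 of 289 members matched.

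Named genes were members past the test, in each region the 5 largest rises and 5 largest falls among members whose groups did not overlap, the 5 of highest level in each region, members with known roles, the first, last, highest and lowest member of each cluster, and the 3 highest and 3 lowest pausing indices. *Zfp142*, *Zfp366*, *Zfp781*, *Zfp947*, *Zfp983* and the promoter words were picked with their values in view. The members and lists were chosen with earlier results of these data known.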

Additional observations from a re-analysis of the deposited data

How the results depend on the processing

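The count of members called in the TSS region, 2 as reported, was 1 at an adjusted p of 0.05, 0 without a filter on low values, 4 with a mean of at least 2 (adding *Zfp532* and *Zfp947*, both higher), 0 without a variance trend and 0 to 6 when 1 library was left out. DESeq2 gave 3 and a pseudocount of 1 also gave 3. In the gene body, 4 as reported, it was 0 at an adjusted p of 0.05, 8 with edgeR, 12 with DESeq2 (6.01% and 10.4% of all genes) and 0 to 8 when 1 library was left out. With the replicate number as a block, 0 members and 0 genes in all passed in either region (21 and 20 members at an unadjusted p under 0.05), and no gene passed in the TSS region without the filter or without the trend. The labels do not say whether the numbers pair the samples. In deviations from their group mean, same-numbered libraries had correlations of -0.0337, -0.133 and -0.163 in the TSS region and -0.153, -0.165 and -0.329 in the gene body. These values showed no sign of pairing. Such deviations cancel within a group, so the values cannot settle whether same-numbered samples were handled together. For the 20 genes acting with KRAB proteins, the TSS count of 2 became 1 at an adjusted p of 0.05 and with a pseudocount of 0.1, 0 without a filter, without a trend or with the block, and 0 to 2 without 1 library. Their gene body count of 1 became 0 at an adjusted p of 0.05 and with the block, 3 with DESeq2 and 0 to 2 without 1 library. The median TSS log2 fold change of the members ranged from 0.15 to 0.25 and that of the gene body from 0.05 to 0.11 without 1 library. With libraries centred on their medians, the TSS median of the members was 0.12 and that of all genes 0.02. The median of all genes turned to -0.00109 in the TSS region with DESeq2, and in the gene body to -0.0039 with edgeR, -0.010 with DESeq2 and between -0.013 and 0.055 without 1 library. The gene body median of members without a KRAB box turned to -0.012 with edgeR, -0.019 with DESeq2 and between -0.060 (without Ctrl replicate 3) and 0.077 (without Ctrl replicate 2). The TSS median of the chromosome 7 cluster from *Zfp628* to *Zfp580* ran from -0.018 to 0.26 without 1 library. The cause of these differences was not tested. Leaving out members with shared 50-base stretches was added after the data were seen. Depth was low in TSS regions, where 5.54% to 17.3% of tested members had under 10 TSS reads in a library.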
